A study of Prunus dulcis and Prunus persica with 12 samples.

Results

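The longest stretch of the almond gene list without a single allele count lay on chromosome 1, between the gene models TexasF0_G1902 and TexasF0_G2258. Its members are the gene models numbered TexasF0_G1903 to TexasF0_G2257 in the table of reads per gene model. That table listed 348 of these 355 numbers, among 29183 gene models in all, and none of the 348 was in the table of allele counts. The stretch is called the block below. The members were thus chosen by their absence from the allele table. A gene model entered that table only where reads could be assigned to an allele, so reads of the members set against reads of models in the table are given as a description, without a test.

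RNA-seq was available from *Prunus dulcis* cv. Texas, with 3 libraries of flowers at the pink stage and 3 of immature fruits, all from normally watered trees in the field. The cultivar was the same in both groups. Organ differed between them, and it cannot be told apart from developmental stage, time of collection or any batch. The libraries are described as biological replicates, but the source of each (tree, branch or pool) is not stated, so p-values measure the spread among these libraries, which may be partly technical. The series also holds 6 peach libraries (*Prunus persica* cv. Early Gold), which were not analysed here. Whole organs were sampled, and fewer cells of a type cannot be told apart from less RNA per cell.

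Almond is mostly self-incompatible, and a traditional cultivar such as Texas therefore carries different haplotypes, here assembled as phase 0 (P0) and phase 1 (P1). Allele-specific expression (ASE) compares the transcripts of both alleles of a gene within the same RNA, so that both are read under the same conditions. It can only be seen where a base in the transcript differs between the haplotypes. A gene without such a base can still be transcribed from both alleles, and its reads then add up in the total of the gene. In the study's method, an informative base was a coding SNP with no indel within 50 bp. Whether the members lack such SNPs, have them and lost them in the filter, or had no read at them was not tested, since the SNP list was not used here. In the study, the phased contigs of the other haplotype (haplotigs) spanned only part of the assembly. Whether they covered the block was not tested either.

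Absence from the allele table was common, but runs of this length were not. Of the 29183 gene models, 23001 (78.8%) had no allele count, and they fell into 2804 runs with a median length of 2 models. Only 21 runs were longer than 100 models. The second longest, TexasF0_G27847 to TexasF0_G28082 on chromosome 8, held 230 models, and the next, TexasF0_G18832 to TexasF0_G19042 on chromosome 5, held 207. The tables give no coordinates. The chromosome was read from longer gene names in the allele table, which carry the chromosome for TexasF0_G1902 before the block and for TexasF0_G2373 after it, both on chromosome 1. Neighbours are therefore neighbours in the numbering.

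**Figure D1:**
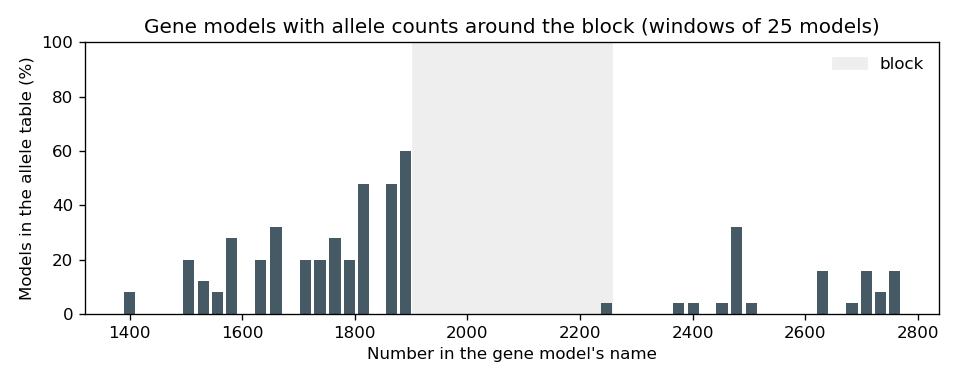
Percent of gene models that have a row in the allele table (vertical axis), in windows of 25 consecutive models plotted by the number in the model's name (horizontal axis), with the block shaded. Many models before the block have a row, the block has none, and few models after it have one (27 of the 50 models before it, 1 of the 50 after it). The low bar at the right edge of the shading is a window that starts at TexasF0_G2235 and runs past the block to include TexasF0_G2258.

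The block began abruptly and ended without a clear border. Of the 50 gene models just before it, 27 (54.0%) had allele counts, against 1 (2.0%) of the 50 just after it. TexasF0_G1902, the model just outside its start, had 172 P0 and 171 P1 reads over the flower libraries and 119 and 129 over the fruit libraries. TexasF0_G2258, just outside its end, had no P0 read and 221 P1 reads, 109 of them in flower and 112 in fruit. After it, the next model with allele counts was TexasF0_G2373, with 8 allele reads, and then TexasF0_G2408, with 82 P0 and 67 P1 reads. The end of the block thus rested on a single gene model, whose allele reads were all from P1, and the models that followed it up to TexasF0_G2373 again had no allele count. Just inside the borders, TexasF0_G1903 had 1 read in 1 fruit library and none in the others, and TexasF0_G2257 was read in flower only.

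Lack of reads went along with absence from the allele table over the gene list as a whole, but many members were well read. Among the other gene models with at least 10 reads in all 6 libraries, 29.7% were in the allele table, and this share was 30.8% at 100 reads and 32.6% at 1000 reads. The block held 187, 151 and 65 members at these depths. Hence 65 members with at least 1000 reads in every library had no allele count.

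The depth, in reads per library, was 51835508, 54926220 and 49635915 in flower and 40406473, 40130120 and 46999320 in fruit. The members took 1.04, 0.967 and 0.942% of the reads of the flower libraries, and 1.28, 1.12 and 1.18% of those of the fruit libraries (0.983% ± 0.0513 and 1.20% ± 0.0817, mean ± SD, n = 3 each). The fruit libraries were higher without overlap on this scale. The order turned when totals were scaled with TMM factors, which correct for a few very abundant genes and lay between 0.812 and 1.29 here: the members then summed to 1.17% in flower and 1.01% in fruit. The direction of the block's summed share is therefore not given.

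In their levels, the members lay closer to the other gene models without allele counts than to those with them. Levels are reads per gene model in CPM, the usual count scaled to the size of its library (here TMM-scaled totals), and are not corrected for transcript length, since lengths were not in the tables. In the flower libraries the median log2(CPM + 1) of the members was 1.96 ± 0.102 (SD over 3 libraries), between 1.53 for the other models without allele counts and 4.04 for models with them. In fruit it was 1.49 ± 0.14, again between 1.24 and 3.99. Over all other gene models, the median was 2.33 in flower and 2.16 in fruit. Of the 348 members, 74 (21.3%) had no read in any library, against 22.0% of the other models without allele counts and 0.809% of those with them. A further 71 members were read in 1 to 5 libraries, and 203 in all 6. At least 10 reads in each flower library were found for 202 members (58.0%), and in each fruit library for 196 (56.3%). For the other models without allele counts these shares were 59.0% and 55.6%.

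**Figure D2:**
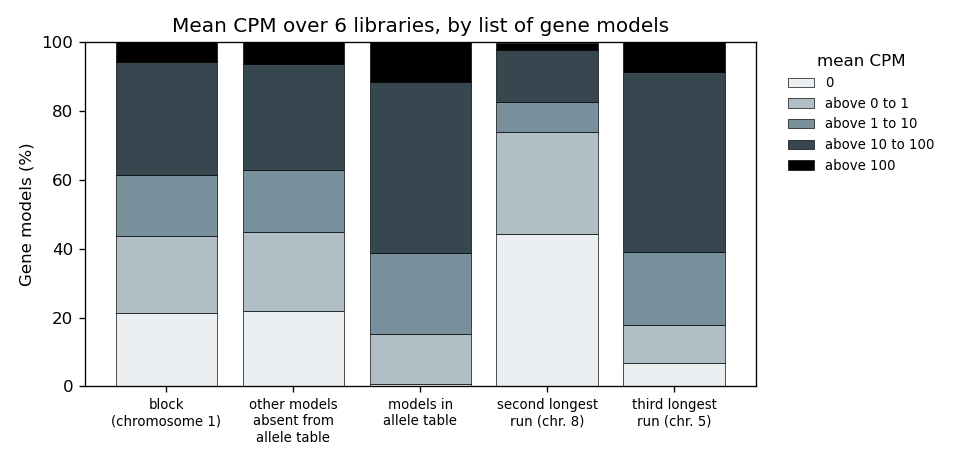
Percent of gene models (vertical axis) in 5 classes of mean CPM over the 6 libraries, for the block, the other models without allele counts, the models with allele counts, and the next 2 longest runs without allele counts. The block resembles the other models without allele counts in the share of unread models (21.3% and 22.0%), while the other long runs lie on either side of it (44.3% and 6.76%).

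The other long runs differed from the block in opposite ways. In the run on chromosome 8, 44.3% of models had no read, and the median log2(CPM + 1) was 0 in both organs. In the run on chromosome 5, only 6.76% had no read, and the median was 3.84 in flower and 3.94 in fruit. At least 10 reads in each flower library were found for 28.3% of models in the run on chromosome 8 and for 85.5% in the run on chromosome 5. Of the members of the block, 114 (32.8%) had a mean level above 10 and up to 100 CPM and 20 (5.75%) one above 100 CPM. Once only models with at least 10 reads in all 6 libraries were compared, the median log2(CPM + 1) of the members was 4.31 in flower and 4.46 in fruit, beside 4.26 and 4.37 for all other models. The spread among the 3 libraries of an organ was also alike, with a median coefficient of variation of 11.2% for members and 10.8% for others in flower, and of 19.2% and 22.1% in fruit.

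The block's reads were concentrated in part of the members. The member with most reads took 16.7% of them, the first 10 took 48.1%, the first 20 took 59.5%, and the first 50 took 78.2%. TexasF0_G2251 led in both organs, with 2600, 1827 and 2095 CPM in the flower libraries and 1581, 1617 and 1315 in the fruit libraries. All flower values lay above all fruit values, but the difference did not pass the test (log2 fold change of 0.53, SE 0.24, adjusted p = 0.0949 in the quasi-likelihood test of edgeR, adjusted after Benjamini and Hochberg). It passed with DESeq2 (adjusted p = 0.011). Its neighbour TexasF0_G2250 had 818, 540 and 693 CPM in flower and 482, 479 and 298 in fruit. There too the organs did not overlap and the test fell short (adjusted p = 0.0526 in edgeR), while DESeq2 gave an adjusted p of 0.00994. Close to both, TexasF0_G2245 had 891, 623 and 767 CPM in flower and 306, 338 and 289 in fruit, and was higher in flower (log2 fold change of 1.29, SE 0.21, adjusted p = 0.00132 in edgeR). Because reads of near-identical copies can be split by the estimation, values of neighbours remain uncertain where they are copies of each other.

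**Figure D3:**
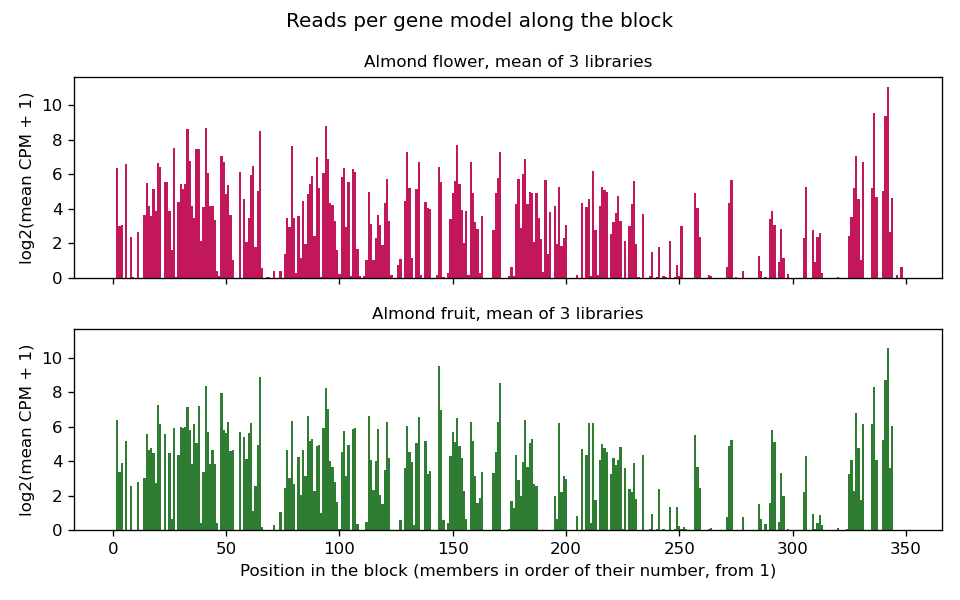
Mean level of each member as log2(mean CPM + 1) (vertical axes), in flower (upper panel) and fruit (lower panel, 3 libraries each), by position in the block from 1 to 348 (horizontal axis). The highest bar in both organs is TexasF0_G2251 near the end of the block, and stretches with few reads lie before it.

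Reads were unevenly spread along the block. In 7 stretches of 50 members (48 in the last), the number of unread members was between 5 and 8 in the first 4 stretches, and then 13, 19 and 16. The sixth stretch, TexasF0_G2159 to TexasF0_G2209, had 16 members that could be tested between organs and took 1.46% of the block's reads in flower and 2.34% in fruit. The last stretch, which holds TexasF0_G2251, had 23 testable members and took 35.2% and 26.6%. The first stretch took 22.9% and 20.7% with 40 testable members. Unread members did not stand in long rows: 27 members (7.76%) lay in runs of at least 3 unread neighbours, close to the 7.8% of all gene models, and the longest such runs held 5 members.

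Flower and fruit were then compared in edgeR over the whole table, with an adjusted p under 0.05 as threshold. Of the 19917 gene models tested, 55.6% differed between organs, 27.6% being higher in flower and 28.0% higher in fruit. Of the 348 members, 216 had enough reads to be tested, and 118 of these (54.6%) differed: 60 (27.8%) were higher in flower and 58 (26.9%) in fruit. These shares are close to the background, and no difference between the block and other gene models is read from them. The members left untested were the 74 without reads and 58 with few, whose median was 6.5 reads over the 6 libraries. As the filter keeps a gene that is well read in one organ only, it favours models that differ. Among the 187 members with at least 10 reads in all 6 libraries, 103 (55.1%) differed, beside 53.8% of all other models of that kind.

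The median size of the differences was that of other gene models, while large changes toward fruit were less frequent among members, which was not tested. A log2 fold change of at least 1 was found for 41 members higher in flower (19.0% of those tested, beside 20% of all gene models tested) and for 29 higher in fruit (13.4%, beside 18.5%), the background in either direction being 38.5%. The median absolute log2 fold change was 0.8 for members and for all other models. The 5th and 95th percentiles of the log2 fold change, flower over fruit, were -2.2 and 3.7 for members and -2.4 and 4.6 for others. In CPM, the libraries of flower and fruit did not overlap for 150 of the 216 tested members (69.4%, beside 65.9% of all models tested). In the other long runs, 51.4% of 70 tested models on chromosome 8 and 52.5% of 181 on chromosome 5 differed between organs.

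**Figure D4:**
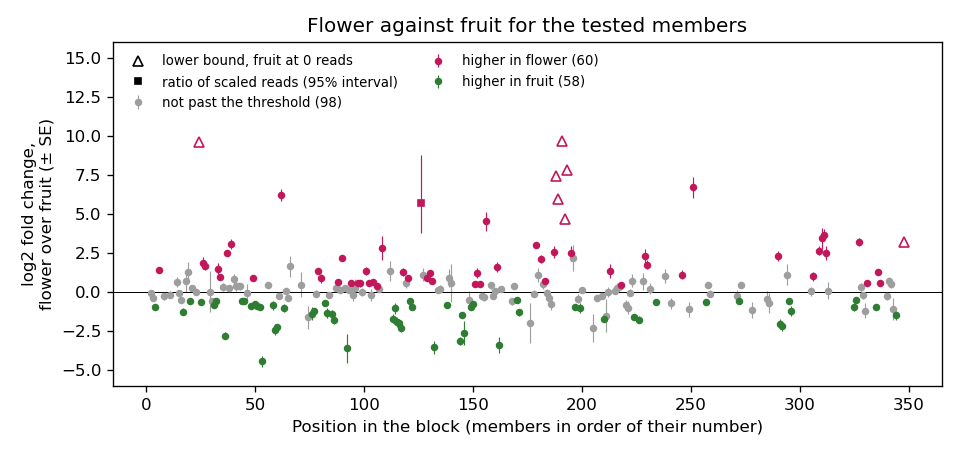
Log2 fold change of flower over fruit (vertical axis, points with SE) for the 216 tested members by position in the block (horizontal axis), coloured by the call (60 higher in flower, 58 higher in fruit, 98 not past the threshold). Open triangles are lower bounds for members without fruit reads, and the square is a ratio of scaled reads with its 95% counting interval. The highest values are on the flower side and 5 of the 7 triangles lie close together.

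In the direction of flower, 8 members were read in a single organ, meaning at least 10 reads in every flower library and at most 3 over the fruit libraries together. They made up 2.3% of members, beside 2.07% of all gene models. No member was read in fruit alone, beside 0.188% of all gene models. The first, TexasF0_G1928, had 2129, 1585 and 2309 reads in flower and none in fruit. With a floor of 3 reads per fruit library, it was at least 772-fold higher in flower (adjusted p = 1.66e-05 in edgeR). Members read in flower alone were picked by these same reads and entered the test through flower only. The adjusted p-values given for them here and below thus restate the choice and add no support to it. It stood alone, whereas 5 of the others were close neighbours.

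The neighbours lay between TexasF0_G2093 and TexasF0_G2099. TexasF0_G2097 had 3542, 1751 and 1275 reads in the flower libraries and none in fruit, which made it at least 828-fold higher in flower (adjusted p = 8.51e-05 in edgeR). TexasF0_G2099 had 941, 503 and 325 flower reads and none in fruit (at least 223-fold, adjusted p = 0.000144). TexasF0_G2094 had 731, 388 and 240, again with none in fruit (at least 171-fold, adjusted p = 0.000188). In all 3 of them the first flower library was the highest and the last the lowest, and every flower library was far above fruit. TexasF0_G2095 had 228, 112 and 157 flower reads (at least 63.6-fold, adjusted p = 0.000211), and TexasF0_G2098 had 89, 56 and 61 (at least 26.2-fold, adjusted p = 0.000417), and neither had a fruit read. The member between them, TexasF0_G2096, had 8, 17 and 12 flower reads and 3, 0 and 0 fruit reads and was not tested. TexasF0_G2093, at the start of the group, was read in both organs, with 1426, 1112 and 1340 reads in flower and 178, 141 and 453 in fruit. Its level was 29.6 ± 5.73 CPM in flower and 4.96 ± 2.88 in fruit (SD, n = 3 each), a log2 fold change of 2.57 (SE 0.40, adjusted p = 0.00111). Past TexasF0_G2100, which had no read, TexasF0_G2101 was again read in both organs and higher in flower, with 973, 676 and 639 reads in flower and 73, 100 and 292 in fruit (log2 fold change of 2.52, SE 0.48, adjusted p = 0.00307). TexasF0_G2102 had 134, 122 and 120 flower reads and 4, 11 and 79 fruit reads and did not pass the test (adjusted p = 0.0573). In TexasF0_G2093, TexasF0_G2101 and TexasF0_G2102 the last fruit library was the highest of the fruit libraries. Whether these neighbours are copies of each other, which could share reads, could not be seen from the tables.

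**Figure D5:**
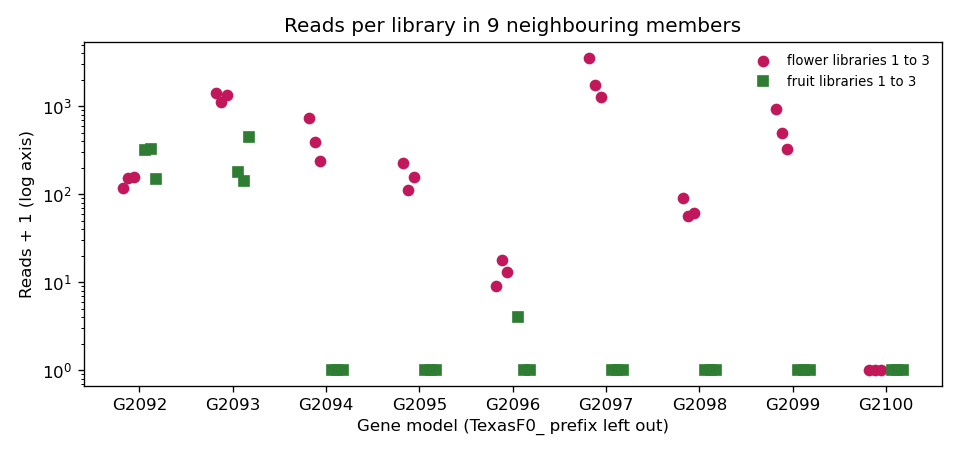
Reads + 1 (vertical axis, log scale) of 9 neighbouring members in the 3 flower libraries (circles) and 3 fruit libraries (squares). From TexasF0_G2094 to TexasF0_G2099 flower reads are present, fruit squares lie at 0 reads except 1 library of TexasF0_G2096 with 3 reads, and TexasF0_G2100 has no read in either organ.

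The remaining members of this kind had fewer reads. TexasF0_G2031 had 36, 26 and 29 reads in flower and 1, 0 and 1 in fruit, a ratio of 52.0 after scaling for library size, with a 95% counting interval of 14.0 to 436.0 (adjusted p = 0.000631 in edgeR). TexasF0_G2257, the last member of the block, had 28, 16 and 28 flower reads and none in fruit, which made it at least 9.27-fold higher (adjusted p = 0.00214). TexasF0_G2159 just missed the definition, with 372, 309 and 266 reads in flower and 4, 0 and 0 in fruit (adjusted p = 0.000109). For each of these members the organs did not overlap.

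On the side of fruit, the members with the largest fold changes were read in both organs. TexasF0_G1958 had 1.37, 0.932 and 0.894 CPM in flower and 28.0, 27.9 and 14.9 in fruit, so that its log2 fold change of flower over fruit was -4.41 (SE 0.34, adjusted p = 3.27e-05 in edgeR). TexasF0_G2049 had 79.5, 90.0 and 87.5 CPM in flower and 521, 704 and 993 in fruit (log2 fold change of -3.11, SE 0.28, adjusted p = 6.71e-05). It held the second highest mean level of the block in fruit, where it took 5.22, 6.96 and 9.77% of the block's reads, against 0.644, 0.818 and 0.754% in the flower libraries. TexasF0_G1940 had 8.06, 9.86 and 12.9 CPM in flower and 85.2, 65.5 and 60.7 in fruit (log2 fold change of -2.77, SE 0.23, adjusted p = 4.83e-05). The fruit libraries of TexasF0_G2049 were spread over a wide range, as were those of TexasF0_G1958, but all lay far above the flower values.

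Less read members also rose in fruit. TexasF0_G2037 had 0.778, 1.47 and 1.34 CPM in flower and 12.6, 21.1 and 8.81 in fruit (log2 fold change of -3.52, SE 0.41, adjusted p = 0.000254 in edgeR). TexasF0_G2067 had 11, 15 and 4 reads in flower and 163, 147 and 90 in fruit (adjusted p = 0.000935). TexasF0_G1997 had 2, 0 and 4 flower reads and 112, 29 and 14 fruit reads, with most of them in a single fruit library (adjusted p = 0.0124). Its call did not pass without the first flower library (adjusted p = 0.0501). Of the 20 members with a mean above 100 CPM, 4 were higher in fruit, among them TexasF0_G2049 and TexasF0_G2077, and 8 in flower. Among the 2118 other gene models above 100 CPM, 426 were higher in fruit and 937 in flower. TexasF0_G2077 had 159, 142 and 166 CPM in flower and 263, 459 and 404 in fruit (log2 fold change of -1.27, SE 0.23, adjusted p = 0.00262).

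Further abundant members were higher in flower or did not differ by the test. TexasF0_G1937 had 372, 428 and 386 CPM in flower and 80.9, 119 and 219 in fruit (log2 fold change of 1.50, SE 0.35, adjusted p = 0.00765 in edgeR). TexasF0_G1999 had 461, 434 and 470 CPM in flower and 260, 344 and 300 in fruit (log2 fold change of 0.59, SE 0.18, adjusted p = 0.0247), a call that was lost when any single flower library was left out (adjusted p of 0.0605 to 0.0903) and with upper quartile scaling (adjusted p = 0.0645). The organs overlapped in the other members of this group. TexasF0_G1945 had 420, 454 and 382 CPM in flower and 379, 189 and 398 in fruit (adjusted p = 0.298). TexasF0_G1970 had 327, 344 and 440 in flower and 380, 497 and 549 in fruit (adjusted p = 0.194). At the even end, TexasF0_G1927 had 43.5, 44.1 and 52.6 CPM in flower and 43.6, 46.3 and 50.8 in fruit. The log2 fold changes of TexasF0_G2130, TexasF0_G1918 and TexasF0_G2120 were -0.02, -0.03 and 0.03 (SE 0.23, 0.14 and 0.31), and their organs overlapped.

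Neighbours that were called in the same direction formed 9 runs of at least 3 members, with 31 members in all (8.91%, beside 7.14% of all gene models in such runs). The longest held 5 members, against 11 elsewhere in the gene list. In this longest run, TexasF0_G2018 to TexasF0_G2022, all 5 were higher in fruit, with log2 fold changes of -1.68, -1.01, -1.90, -1.94 and -2.30 in that order. Its end member TexasF0_G2022 had 9.62, 14.6 and 11.0 CPM in flower and 63.2, 45.2 and 65.1 in fruit (adjusted p = 0.000108 in edgeR). TexasF0_G2019 was the weakest, with 7.83, 8.18 and 7.08 CPM in flower and 9.64, 11.9 and 25.1 in fruit (adjusted p = 0.0412), and its call was lost without any single flower library (adjusted p of 0.0936 to 0.12) or without the last fruit library (adjusted p = 0.0841).

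The other runs toward fruit were TexasF0_G1955 to TexasF0_G1958, TexasF0_G1963 to TexasF0_G1965 and TexasF0_G2049 to TexasF0_G2051. In the first of them, 3 members changed by less than 1 on the log2 scale (-0.77, -0.85 and -0.96), next to TexasF0_G1958 with its far larger change. In the second, TexasF0_G1965 had 10.3, 10.2 and 10.3 CPM in flower and 46.0, 60.2 and 39.7 in fruit (log2 fold change of -2.24, SE 0.19, adjusted p = 5.29e-05 in edgeR), and its neighbour TexasF0_G1964 changed by -2.39. Flower libraries of TexasF0_G1965 were nearly equal, and the fruit libraries lay well above them. Next to TexasF0_G2049, TexasF0_G2050 had 44.0, 44.3 and 48.8 CPM in flower and 133, 126 and 110 in fruit (log2 fold change of -1.43, SE 0.14, adjusted p = 0.000129).

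Toward flower, the longest run was TexasF0_G2218 to TexasF0_G2221, with 4 members of low level. TexasF0_G2220 had 211, 153 and 195 reads in flower and 16, 18 and 11 in fruit (log2 fold change of 3.65, SE 0.38, adjusted p = 0.000155 in edgeR). TexasF0_G2218 had 321, 266 and 206 reads in flower and 52, 40 and 44 in fruit (log2 fold change of 2.68, SE 0.28, adjusted p = 0.000147). In this run, the log2 fold changes of TexasF0_G2219 and TexasF0_G2221 were 3.47 and 2.55. Smaller changes were found for TexasF0_G2034 to TexasF0_G2036 (0.89, 1.25 and 0.71) and for TexasF0_G2056 to TexasF0_G2058 (0.51, 1.24 and 0.55), where the call of TexasF0_G2056 was lost without the first or the second flower library (adjusted p of 0.0588 and 0.0527), that of TexasF0_G2058 without any single flower library (0.0815 to 0.0998), and both with upper quartile scaling (0.0558 and 0.0918). Of these, TexasF0_G2035 was the best separated, with 150, 146 and 166 CPM in flower and 61.9, 70.4 and 61.2 in fruit (adjusted p = 0.000263).

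Calls in each direction varied along the block. The first 3 stretches of 50 members held 40, 38 and 35 tested members. Of these, 9, 8 and 11 were higher in flower and 11, 14 and 14 in fruit. In the next, TexasF0_G2056 to TexasF0_G2106, which includes the neighbours read in flower only, the counts were 15 and 5 of 38. The fifth held 5 and 4 of 26, the sixth 2 and 6 of 16, and the last 10 and 4 of 23. Over all gene models tested, 27.6% were higher in flower and 28.0% in fruit. As the number of tested members differed between stretches, the bare counts are not directly comparable. Differences between stretches were not tested.

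In the deposited regularized log values, which are on a log2 scale and shrink genes with few reads, 280 of the 348 members were present. Some of the 280 had no flower or fruit read, since 74 members had none. Leaf columns, left out here, were deposited beside these values, and how they bear on them was not tested. The medians of the 280 members were 7.90, 7.92 and 7.82 in the flower libraries and 7.77, 7.82 and 7.88 in the fruit libraries. The 24114 other gene models of that table had medians between 8.03 and 8.09 in the 6 libraries. The members were thus slightly lower than all other models in every library on this scale as well. That group includes the models with allele counts, whose medians were 8.91 to 8.96. Beside the other models without allele counts, with medians of 7.60 to 7.68, the members were higher in every library.

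The gene models carry identifiers without symbols or descriptions, and none of all 29183, the members included, matched an entry of the RefSeq gene table of almond, which uses other identifiers, so no function is given for any member, and flower or fruit markers could not be checked by name.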

How the data were processed

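The authors' gene table holds estimated counts (whole numbers, used as deposited): reads were mapped to almond transcript models with Bowtie2 and quantified with RSEM. The authors' allele table holds counts of reads with the P0 or P1 base at coding SNPs called between the phases with Minimap2 (SNPs with an indel within 50 bp were left out), from reads mapped to P0 with Hisat2 and counted by GATK's ASEReadCounter. Reads with P1 bases can be lost by mapping to P0. A further deposited table holds regularized log values on the log2 scale, and the fourth, of allele values on that scale, was not used. Versions are not given in the sources used here. The 4 tables also hold 18 leaf columns, which were left out because no sample of the series fits them.

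Members were found by matching identifiers, and allele counts served only for membership and for the models on either side. Flower and fruit (3 libraries each) were compared in R 4.3.3 with edgeR 4.0.16: TMM factors, filterByExpr, glmQLFit and glmQLFTest without a block, Benjamini-Hochberg over all 19917 models tested, threshold 0.05. Fold changes are fitted with a prior count of 2, so those of members with few reads are shrunken. The SE given for edgeR is the absolute log2 fold change divided by the square root of the test's F statistic. It is therefore derived from the test and not fitted separately. Where an organ had no read, the fold is a lower bound from a floor of 3 reads per library, and with 1 to 3 reads the ratio of reads scaled for library size is given with its 95% interval, which like the floor covers counting error only. Medians of levels use log2(CPM + 1). The fit was tested on counts simulated with 1 set dispersion for all genes. It called 53 of 100 genes changed 2-fold, 100 of 100 changed 4-fold and 10 of 19583 unchanged genes. A member that did not pass the threshold is therefore not shown to be unchanged.

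Named members were the 6 with the largest fold changes in each direction (adjusted p under 0.05, at least 10 reads in every library of the higher organ, no overlap), the 6 with the highest mean CPM in each organ, the 4 most even with at least 100 reads in all 6 libraries, both end members, runs of at least 3 neighbours called alike, and up to 6 members per organ read in that organ alone. Members and models outside this rule (TexasF0_G2031, TexasF0_G2096, TexasF0_G2100, TexasF0_G2101, TexasF0_G2102, TexasF0_G2373, TexasF0_G2408 and those under other observations) were added after their values were seen. The members and lists were chosen with earlier results of these data known. Alternatives were DESeq2 1.42.0, its size factors, upper quartile scaling, no filter on low counts, a replicate block, other pseudocounts and read limits, and each library left out. Shares of reads without TexasF0_G2251 or TexasF0_G2049 and with TMM-scaled totals were added after seeing the data.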

Additional observations from a re-analysis of the deposited data

How the results depend on the processing

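The counts of members called at the adjusted p threshold kept within 1.5 times under other fits: 60 higher in flower and 58 in fruit became 78 and 56 with DESeq2, 68 and 51 with its size factors, 49 and 64 with upper quartile scaling, 67 and 57 without a filter, and 48 to 70 and 40 to 58 with 1 library left out. Of the 118, 114 were also called by DESeq2, and 81 in every fit with a library left out. The share of the members' calls that were higher in flower was 50.8%, 58.2% with DESeq2 and 43.4% with upper quartile scaling, which moved the median log2 fold change of all models from -0.06 to -0.21. With the replicate number as a block, 60 and 53 members were called, 106 of them among the 118. Same-numbered libraries showed no clear pairing (correlations of their deviations 0.0582, -0.2 and 0.131), and not every library correlated best with its own number. With so few libraries per organ, these values cannot exclude a pairing. Requiring a log2 fold change of at least 1 left 41 and 29 members, and 3977 and 3692 of the 5488 and 5580 gene models. Leaving out the 10 most abundant gene models from the totals gave a flower share of 1.07%. Without TexasF0_G2251 the block's share of reads was 0.8% in flower and 1.02% in fruit, without TexasF0_G2049 it was 1.11% in fruit, and with TMM-scaled totals 1.17% and 1.01%. The median log2(CPM + 1) of members minus that of all other models, -0.37 in flower and -0.68 in fruit, became -0.19 and -0.32 with a pseudocount of 5, -0.91 in fruit with 0.1, and -0.09 and -0.18 over models with a read. With up to 10 reads allowed in flower, 2 members rather than 0 were read in fruit alone. Single calls were lost for TexasF0_G1955 without flower replicate 1 (adjusted p = 0.0548 in edgeR) and TexasF0_G1997 without flower replicate 1 (0.0501), for TexasF0_G1963 without any single flower library or fruit replicate 2 (0.0554 to 0.118), for TexasF0_G1999, TexasF0_G2019 and TexasF0_G2058 without any single flower library (0.0605 to 0.12), TexasF0_G2019 also without fruit replicate 3 (0.0841), for TexasF0_G2051 without flower replicate 2 or 3 or fruit replicate 1 (0.0569 to 0.0727), and for TexasF0_G2056 without flower replicate 1 or 2 (0.0527 and 0.0588). Calls were also lost with the replicate block (TexasF0_G1963 0.059, TexasF0_G1999 0.0634, TexasF0_G2019 0.0639), with upper quartile scaling (TexasF0_G1999 0.0645, TexasF0_G2056 0.0558, TexasF0_G2058 0.0918) and with DESeq2's size factors (TexasF0_G1963 0.05, TexasF0_G2019 0.0505). No called member that is named changed direction. The cause of these changes was not tested.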

Other observations

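A single library held nearly all reads of 1 member that could not be tested. TexasF0_G2083 had 4, 2 and 4 reads in the flower libraries and 2, 0 and 229 in the fruit libraries, so that its mean level in fruit, 1.41 ± 2.41 CPM (SD, n = 3), rested on the third fruit library. It was the untested member with most reads, 241 in all.

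Among the 118 members that differed between flower and fruit, 1 had overlapping organs. TexasF0_G2121 had 6.73, 7.48 and 3.70 CPM in flower and 3.77, 1.46 and 1.64 in fruit (adjusted p = 0.0314 in edgeR's quasi-likelihood test). Conversely, 33 of the 150 tested members without overlap did not pass the test. Over all 19917 gene models tested, 13126 had organs without overlap and 11068 differed by the test. Nothing particular to the block is read from these counts. Another member far higher in flower, TexasF0_G2061, had 677, 698 and 467 reads in flower and 5, 38 and 39 in fruit (log2 fold change of 4.55, SE 0.62, adjusted p = 0.000588).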
